A study of Homo sapiens with 6 samples.

Results

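The enzymes that burn fatty acids and make ketone bodies were examined in HepG2, an established human hepatocellular carcinoma cell line, after knockdown of FTO. The group comprised 39 genes taken from a list by symbol, of 60483 gene identifiers counted in each library, with no threshold on expression. All 39 were found by identifier, and 34 had enough counts to be tested. RNA sequencing covered 6 libraries, 3 from cells transfected with an siRNA against FTO and 3 from cells transfected with a control siRNA, all in the same serum-supplemented medium. FTO encodes an enzyme known to demethylate N6-methyladenosine in RNA, and the series asked which genes it regulates in hepatocellular carcinoma. HepG2 is 1 tumour line, and separate cultures behind the libraries are not stated, so p-values measure the spread between these libraries, which may be technical.

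Total counts lay between 15713279 and 18390953 per library, and levels are given as CPM, counts scaled to 1000000 per library with TMM composition factors. A count of 3, used as the floor of detection, was worth 0.163 to 0.191 CPM and covers counting error only. FTO had 11.2, 14.5 and 5.21 CPM in the FTO siRNA libraries, against 40.8, 38 and 38.8 CPM in the controls, a log2 fold change of -1.93 ± 0.32 (edgeR adjusted p = 0.00932) that kept its call in all 16 alternatives. Of 15025 genes tested, 1707 passed an adjusted p of 0.05, or 11.4%. FTO siRNA 3 stood apart from FTO siRNA 1 and 2 on the second principal component, with scores of 52.7, -40.1 and -22.7 in FTO siRNA 3, 1 and 2. Without FTO siRNA 3 the share of called genes was 30%. The hepatocyte-lineage markers were abundant in every library, with ALB at 2991, 2392 and 5635 CPM in the FTO siRNA libraries and 5315, 5306 and 3556 CPM in the controls. Their sum was 15871 to 28435 CPM with FTO siRNA and 23014 to 33336 CPM with control siRNA. Of 10 such markers 9 had a negative log2 fold change, with a median of -0.35, and none passed (2 had an unadjusted edgeR p under 0.05, and DESeq2 and limma-voom called 1). APOB, singled out after its values were seen, had 1405, 2381 and 4062 CPM in the FTO siRNA libraries, against 8179.6, 7419 and 5071 CPM in the controls with no overlap (-1.40 ± 0.41 log2; edgeR adjusted p = 0.065). Of 10 immune cell markers 6 were tested and 4 rose, or 66.7%, where 7.53% of all genes tested rose. PTPRC, NKG7 and CD3D passed the filter only through their FTO siRNA counts, so the filter partly fixed this share. PTPRC and NKG7 each had 60 counts in the FTO siRNA and 2 in the control libraries together, CD3D 158 and 15, and CD74 618 and 142. CD14 and LYZ did not pass. The summed level of all 10 was 76.8 to 110.1 CPM with FTO siRNA and 51.4 to 102 CPM with control siRNA. LYZ made up most of it, at 83.5, 59.8 and 71.8 CPM in the FTO siRNA libraries and 74.4, 97.3 and 46.7 CPM in the controls. MS4A1 was at 0 in all controls. Of 9 fibroblast markers 7 were tested and 3 rose, or 42.9% (277 to 613 CPM summed with FTO siRNA, 117 to 203 with control siRNA), and DCN and THY1 were at 0 in all controls. Of 8 striated muscle and adipocyte markers only CKM could be tested and it rose (2.9 to 6.51 CPM summed with FTO siRNA, 0.36 to 0.49 with control siRNA). CKM too passed the filter only through its FTO siRNA counts. MYH7, DES and LEP were at 0 in all controls and ADIPOQ in every library. Of 6 markers of cervical and kidney lines 4 were tested and 3 rose, or 75% (9.88 to 14.4 CPM summed with FTO siRNA, 4.17 to 4.63 with control siRNA). Those 3, KRT17, LIN28A and HOXB7, likewise passed the filter only through their FTO siRNA counts. The 1 endothelial marker tested of 5 did not pass. The part of these markers in the results below was not tested.

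Fatty acids are first activated to acyl-CoA by acyl-CoA synthetases. Long chains then enter mitochondria as carnitine esters, made by CPT1, which malonyl-CoA inhibits, and are shortened in repeated rounds of dehydrogenation, hydration, a further dehydrogenation and thiolysis. Peroxisomes run a parallel pathway for very long and branched chains and for bile acid precursors, and liver mitochondria turn surplus acetyl-CoA into ketone bodies. Many of these genes are targets of PPAR alpha, a nuclear receptor that fatty acids activate in the liver.

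After FTO siRNA, 3 of the 34 tested members rose and 4 fell, and 27 did not pass. The long-chain acyl-CoA synthetase ACSL5, the mitochondrial entry enzyme CPT1A and the peroxisomal oxidase ACOX3 were the members that rose, by 4.63-fold, 3.08-fold and 1.71-fold. The members that fell were the peroxisomal enzymes EHHADH and HSD17B4, the short branched-chain dehydrogenase ACADSB and the synthetase ACSL4. Members were thus called at 8.82% higher and 11.8% lower, beside 7.53% higher and 3.83% lower over all genes tested. Split by compartment, 1 of 21 tested mitochondrial members rose and 1 fell, 1 of 8 peroxisomal members rose and 2 fell, and 1 of 5 other members rose and 1 fell; the difference between compartments was not tested. The median log2 fold change was -0.03 over the mitochondrial and -0.17 over the peroxisomal members, and 0.04 over all genes tested. The 3 FTO siRNA values lay above every control value for 4 members and below every control value for 7, or 11.8% and 20.6%, where 19.2% and 17.4% of all genes tested did so. DESeq2 called 10 members, or 29.4%, beside 16.7% of all genes tested, and limma-voom called 7, or 20.6%, beside 10.5%. In bulk RNA, fewer cells that express a gene and less of its RNA per cell cannot be told apart.

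**Figure D1:**
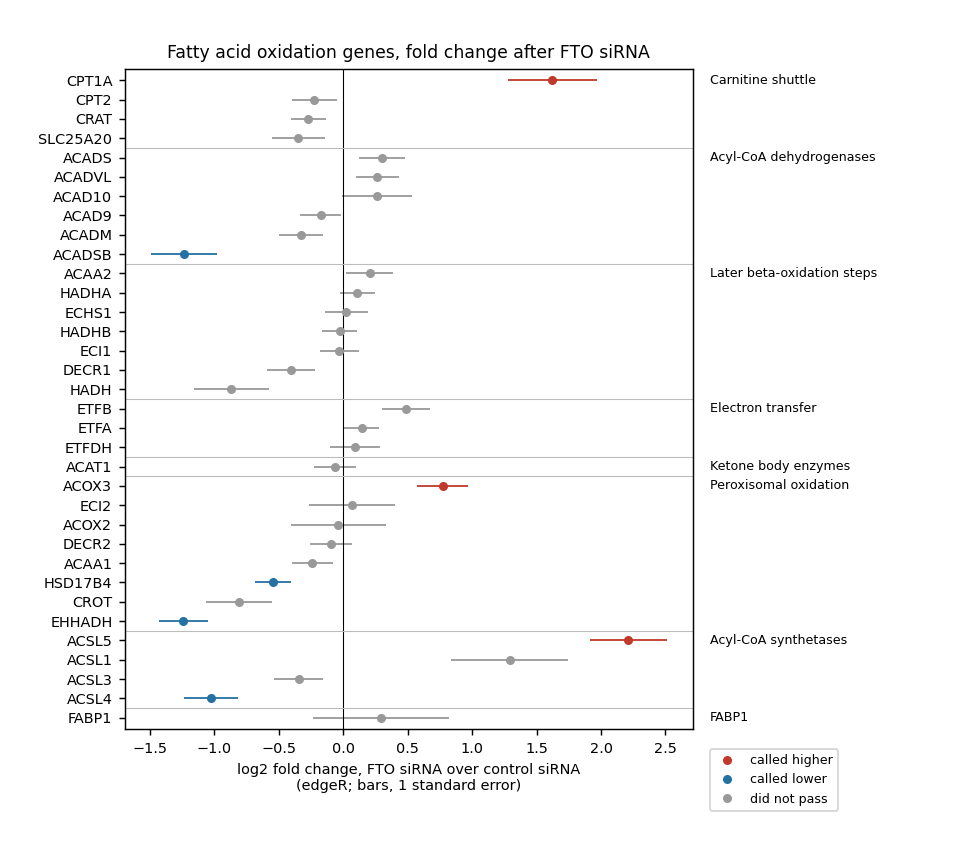
Log2 fold change of the 34 tested members, FTO siRNA over control siRNA, ordered by role from top to bottom; points are edgeR estimates and bars 1 standard error. ACSL5 at 2.21 and EHHADH at -1.24 are the ends of the range, and most mitochondrial members sit close to 0.

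Counted per kilobase of the longest annotated transcript, which allows levels of different genes to be compared, the core mitochondrial enzymes were the most abundant. The very-long-chain dehydrogenase ACADVL stood at 145 CPM per kilobase with FTO siRNA and 121 with control siRNA, and the electron acceptor subunit ETFA at 107 and 97.3. HADHA, the large subunit of the trifunctional protein, and the hydratase ECHS1 followed at 75.9 and 74.4 in controls. CPT1A was the lowest of the tested members in controls at 1.42 CPM per kilobase, and stood at 4.37 with FTO siRNA. The untested members CPT1B, ACAD11, ACADL, PDK4 and BDH1 all lay at or under 0.251 CPM per kilobase in either group. With the union of all exons as the length, ECHS1, ACADVL and ACSL4 held the first 3 places in controls, so the order of the top members depends on the gene model.

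**Figure D2:**
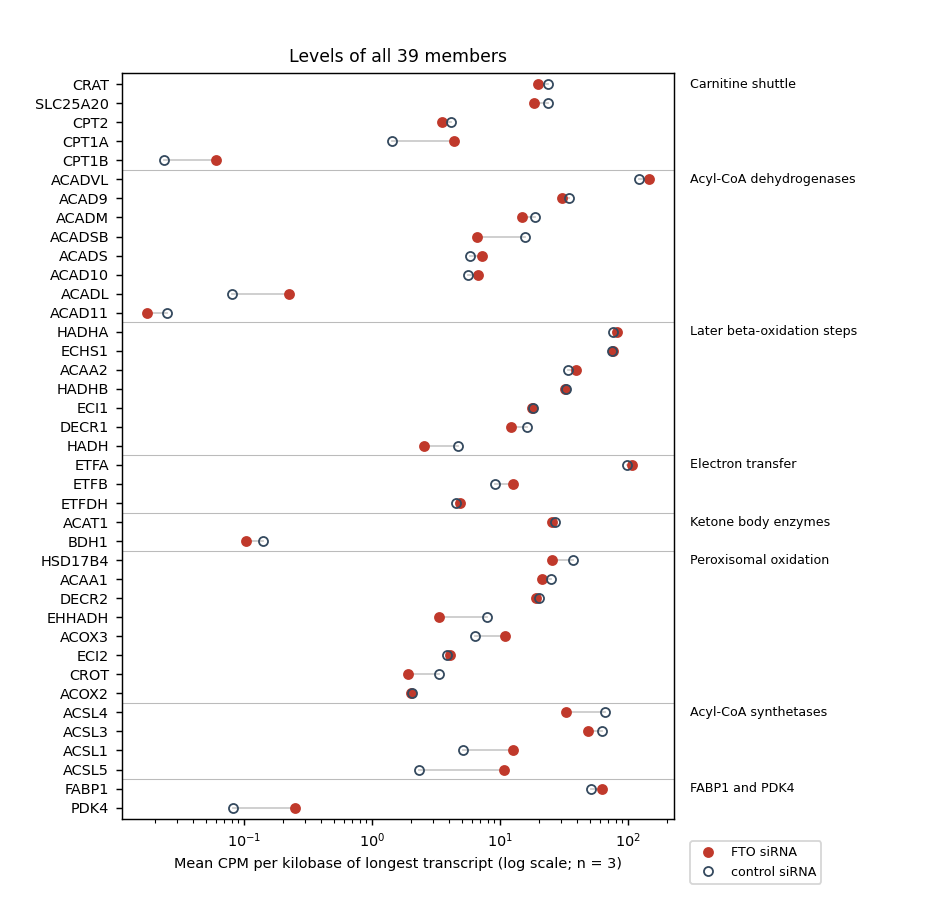
Mean CPM per kilobase of the longest transcript for all 39 members (log axis; filled points, 3 FTO siRNA libraries; open points, 3 control siRNA libraries), ordered by role. Levels span from 0.0173 for ACAD11 to 145 for ACADVL, both with FTO siRNA, and ACSL4 stands at 32.5 with FTO siRNA and 66.2 with control siRNA.

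The 4 long-chain acyl-CoA synthetases, which charge fatty acids with coenzyme A, differed: ACSL5 rose, ACSL4 fell, and ACSL1 and ACSL3 did not pass. ACSL5, of the outer mitochondrial membrane and endoplasmic reticulum, had 31.9, 24.9 and 51.9 CPM in FTO siRNA 1, 2 and 3, against 7.48, 6.34 and 9.66 CPM in controls 1, 2 and 3. All FTO siRNA values exceeded every control, with FTO siRNA 3 the highest. ACSL5 rose by 2.21 ± 0.30 on the log2 scale (edgeR adjusted p = 0.00469), and the call held in all 16 alternatives (adjusted p from 3.90e-10 to 0.0347). ACSL4, which prefers arachidonic acid and shapes membrane phospholipids, had 147, 167 and 207 CPM in FTO siRNA 1, 2 and 3, against 391, 404 and 264 CPM in controls 1, 2 and 3. It was low in all 3 FTO siRNA libraries and the groups did not overlap, with control 3 the lowest control. ACSL4 fell by 1.02 ± 0.21 on the log2 scale (edgeR adjusted p = 0.0191). That call was lost without control 1 (adjusted p = 0.0942), control 2 (adjusted p = 0.0945), FTO siRNA 1 (adjusted p = 0.0526) or FTO siRNA 2 (adjusted p = 0.0598), and the adjusted p ran from 0.000173 to 0.0945 over the 16 alternatives. The call was also lost with replicate number as a block (edgeR adjusted p = 0.0526), and with that block and length and GC trends removed (edgeR adjusted p = 0.0612).

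ACSL1, the synthetase best known for hepatic triglyceride synthesis and oxidation, had 30.5, 28.8 and 94.6 CPM in FTO siRNA 1, 2 and 3, against 21.8, 25.9 and 15.3 CPM in controls 1, 2 and 3. The groups did not overlap, but FTO siRNA 3 alone stood far above the rest, and the change of 1.29 ± 0.45 (log2) did not pass (edgeR adjusted p = 0.104). Without FTO siRNA 3 the log2 fold change of ACSL1 was 0.47, and DESeq2 called it on all libraries (adjusted p = 0.025). Over all 16 alternatives its adjusted p ran from 0.025 to 0.274. ACSL3, which works on the endoplasmic reticulum and on forming lipid droplets, had 213, 281 and 334 CPM in the FTO siRNA libraries, against 377, 352 and 325 CPM in the controls. FTO siRNA 3 reached the control range, and the log2 fold change of -0.35 ± 0.19 did not pass (edgeR adjusted p = 0.269). It was called lower without FTO siRNA 3 (adjusted p = 0.0215), with an adjusted p from 0.0215 to 0.63 over the 16 alternatives.

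FABP1, the liver fatty acid binding protein that carries fatty acids in the cytosol, varied more between FTO siRNA libraries than between groups. It had 117, 39 and 237 CPM in FTO siRNA 1, 2 and 3, against 136, 109 and 76.8 CPM in controls 1, 2 and 3, so the lowest and the highest of the 6 values both came from FTO siRNA libraries. Its log2 fold change was 0.29 ± 0.53 (edgeR adjusted p = 0.762) with all libraries and -0.49 without FTO siRNA 3. Promoter windows of RefSeq (250 bases before to 50 after the start, build GRCh38.p14) were on hand for 30 of the 39 members, in 42 windows. They were searched on both strands for 2 copies of AGGTCA 1 base apart, the direct repeat that PPAR and HNF4 receptors bind, with at most 2 mismatches and any base between the copies. A match occurred in 3 of the 42 windows, or 7.14%, beside 2.97% of all 35116 windows in the table. The matching stretches, each on the minus strand of its chromosome and read along the gene, are shown with the repeat in capitals, and each has 2 mismatches.
FABP1 (chr2:88128088-88128160): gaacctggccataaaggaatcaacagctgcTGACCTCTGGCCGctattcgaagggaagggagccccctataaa
ACSL1 (chr4:184805625-184805697): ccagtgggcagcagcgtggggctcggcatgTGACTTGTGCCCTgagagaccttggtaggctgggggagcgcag
ACAA2 (chr18:49813567-49813639): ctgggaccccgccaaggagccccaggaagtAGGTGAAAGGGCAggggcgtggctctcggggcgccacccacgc
The match lies on the gene's own strand in ACAA2 and on the other strand in FABP1 and ACSL1, where the window belongs to 1 of 5 annotated starts. None of these genes was called. No window was on hand for EHHADH, so its promoter was not searched. The windows of the other called members held no such match, which says only that these letters are not in these windows.

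In the carnitine shuttle, which carries long acyl chains into mitochondria, CPT1A rose and the other tested members did not pass. CPT1A, the liver form of carnitine palmitoyltransferase 1, had 16.7, 15.5 and 36.4 CPM in FTO siRNA 1, 2 and 3, against 7.29, 8.77 and 6.28 CPM in controls 1, 2 and 3. Every FTO siRNA value exceeded every control, and FTO siRNA 3 was the highest of all. CPT1A averaged 22.9 ± 11.7 CPM with FTO siRNA and 7.45 ± 1.25 CPM with control siRNA (SD, n = 3 each) and rose by 1.62 ± 0.34 on the log2 scale (edgeR adjusted p = 0.0212). The call was lost without control 1 (adjusted p = 0.101), control 2 (adjusted p = 0.0702) or control 3 (adjusted p = 0.0867), and the log2 fold change without FTO siRNA 3 was 1.09, still called (adjusted p = 0.00267). The call was lost too with replicate number as a block and length and GC trends removed (edgeR adjusted p = 0.0521). Over the 16 alternatives the adjusted p of CPT1A ran from 0.000156 to 0.101. CPT1B, the muscle form, had 0, 2 and 7 counts in FTO siRNA 1, 2 and 3, against 2, 1 and 0 counts in controls 1, 2 and 3, too few to test. Of its annotated exon bases, 66.4% also belong to the readthrough gene CHKB-CPT1B, which had 5 counts in the FTO siRNA and 2 in the control libraries together. How reads in such shared exons were counted is not given in the sources used here, so the low counts of CPT1B cannot be read as low expression.

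The other shuttle members did not pass. CRAT, the carnitine acetyltransferase, had 52.6, 51.4 and 58.5 CPM in the FTO siRNA libraries, against 69.9, 64.8 and 61.5 CPM in the controls, and the groups did not overlap (-0.27 ± 0.13 log2; edgeR adjusted p = 0.229). The carnitine carrier SLC25A20 had 33.5, 27.9 and 43.2 CPM in the FTO siRNA libraries, against 49.2, 48.9 and 35.1 CPM in the controls, with FTO siRNA 3 inside the control range (-0.35 ± 0.21 log2; edgeR adjusted p = 0.314). Both were called lower when FTO siRNA 3 was left out (CRAT, adjusted p = 0.0391; SLC25A20, adjusted p = 0.0327), and over the 16 alternatives their adjusted p ran from 0.0391 to 0.505 and from 0.0327 to 0.593. CPT2, which releases acyl-CoA in the matrix, had 17.8, 16.8 and 13.2 CPM in the FTO siRNA libraries, against 18.8, 19.4 and 17.6 CPM in the controls (-0.22 ± 0.17 log2; edgeR adjusted p = 0.441).

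**Figure D3:**
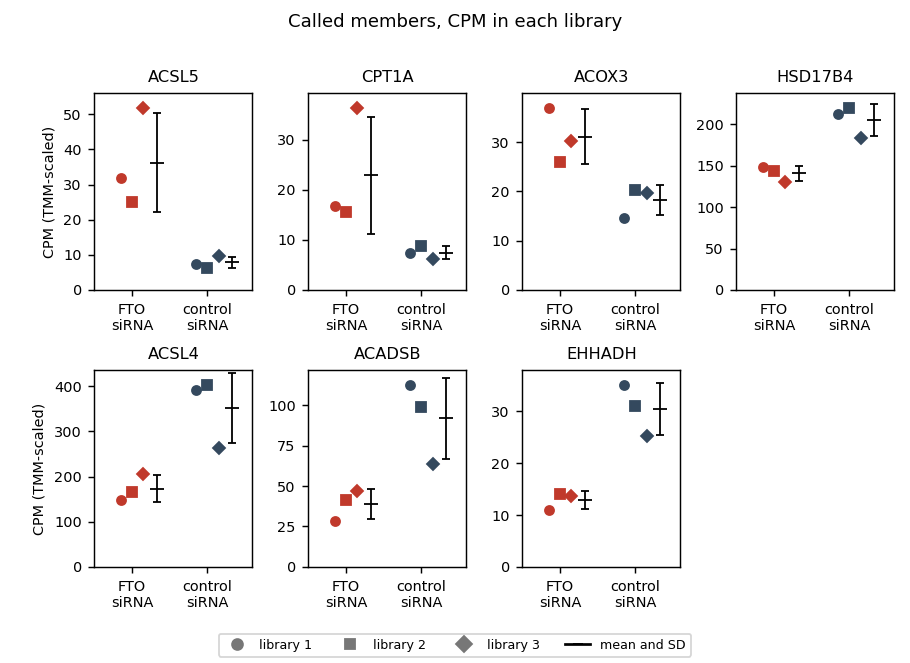
TMM-scaled CPM of the 7 called members in each library (linear axes from 0; FTO siRNA left, control siRNA right; symbols mark library 1, 2 and 3, bars the mean and SD of 3). Groups do not overlap in any panel; CPT1A and ACSL5 are highest in FTO siRNA 3, at 36.4 and 51.9 CPM.

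Among the acyl-CoA dehydrogenases, which begin each round of oxidation, ACADSB fell and the other tested members did not pass. ACADSB acts on short branched chains and in the breakdown of isoleucine, and had 28.4, 41.5 and 46.8 CPM in FTO siRNA 1, 2 and 3, against 113, 98.9 and 63.8 CPM in controls 1, 2 and 3. All FTO siRNA values lay below the lowest control, control 3. ACADSB fell by 1.24 ± 0.26 on the log2 scale (edgeR adjusted p = 0.0192); only EHHADH had as low a fold change among members. The call was lost without control 1 (adjusted p = 0.0919), control 2 (adjusted p = 0.082) or FTO siRNA 2 (adjusted p = 0.0536), with an adjusted p from 0.000158 to 0.0919 over the 16 alternatives. The enzymes of straight chains had smaller differences. ACADVL, for very long chains, had 365, 277 and 383 CPM in the FTO siRNA libraries, against 291, 282 and 279 CPM in the controls, with FTO siRNA 2 below every control (0.27 ± 0.16 log2; edgeR adjusted p = 0.331). ACADM, for medium chains, had 36, 33.5 and 47.1 CPM in the FTO siRNA libraries, against 49.2, 53 and 44.5 CPM in the controls (-0.33 ± 0.17 log2; edgeR adjusted p = 0.248). In ACADM FTO siRNA 3 alone reached the control range, and the gene was called lower without it (adjusted p = 0.0134; adjusted p from 0.0134 to 0.529 over the 16 alternatives). ACADS, for short chains, had 14.1, 12.6 and 15.4 CPM in the FTO siRNA libraries, against 11.3, 12.7 and 10.2 CPM in the controls and the highest log2 fold change of this family, 0.30 ± 0.18 (edgeR adjusted p = 0.306). It turned to -0.04 once trends on transcript length and GC content were removed.

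ACAD9, which besides dehydrogenation serves the assembly of respiratory complex I, had 85.5, 77.2 and 60.2 CPM in the FTO siRNA libraries, against 88.3, 81.3 and 81.9 CPM in the controls (-0.17 ± 0.16 log2; edgeR adjusted p = 0.52). ACAD10 showed a single high library, with 20.7, 20.3 and 40.9 CPM in the FTO siRNA libraries, against 21.9, 23.8 and 22.6 CPM in the controls. FTO siRNA 1 and 2 were below every control there, and the log2 fold change of 0.26 ± 0.27 (edgeR adjusted p = 0.576) became -0.18 without FTO siRNA 3. ACADL, for long chains, had 5, 7 and 19 counts in FTO siRNA 1, 2 and 3, against 1, 3 and 6 counts in controls 1, 2 and 3 and was not tested. ACAD11 had 0, 1 and 3 counts in FTO siRNA 1, 2 and 3, against 2, 1 and 2 counts in controls 1, 2 and 3 and was not tested either. Of its annotated exon bases 83.8% also belong to other genes, so its low counts cannot be read as low expression.

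The later steps of mitochondrial oxidation held no called gene. Of 7 tested members none passed in edgeR, where 1 had an unadjusted p under 0.05 DESeq2 called 1, HADH, and limma-voom 0. HADHA and HADHB encode the subunits of the mitochondrial trifunctional protein and lie head to head on chromosome 2. HADHA had 269.9, 242 and 246 CPM in the FTO siRNA libraries, against 249, 223 and 230.3 CPM in the controls, and HADHB had 101, 95.2 and 83.3 CPM in the FTO siRNA libraries, against 97.1, 97.9 and 89.1 CPM in the controls. Their log2 fold changes were 0.11 ± 0.14 and -0.03 ± 0.14 (edgeR adjusted p = 0.646 and 0.922), each smaller than its standard error. Their RefSeq promoter windows (GRCh38.p14) share 194 bases between the divergent starts. The HADHB window on the plus strand is shown because 1 stretch of DNA precedes both genes, with the bases that are also in the HADHA window in capitals.
HADHB (chr2:26244689-26244988): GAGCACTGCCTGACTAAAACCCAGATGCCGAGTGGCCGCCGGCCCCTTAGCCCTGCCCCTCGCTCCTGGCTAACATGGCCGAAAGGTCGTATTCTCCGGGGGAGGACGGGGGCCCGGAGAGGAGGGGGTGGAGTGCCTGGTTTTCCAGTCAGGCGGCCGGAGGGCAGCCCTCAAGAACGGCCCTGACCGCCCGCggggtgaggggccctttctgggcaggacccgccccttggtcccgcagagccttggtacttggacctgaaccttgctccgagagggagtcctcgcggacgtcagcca
In HADHA 6.75% of the 50-base words of the longest transcript also occur in another gene, so a share of its reads could be placed elsewhere. The pseudogene HADHAP2 shared the most words.

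ECHS1, the short-chain enoyl-CoA hydratase, had 146, 122 and 99.1 CPM in the FTO siRNA libraries, against 115, 128 and 117 CPM in the controls, with FTO siRNA 1 the highest and FTO siRNA 3 the lowest value (0.02 ± 0.17 log2; edgeR adjusted p = 0.941). ECI1, an isomerase for unsaturated chains, had 29.6, 26 and 26 CPM in the FTO siRNA libraries, against 27.2, 30.04 and 25.9 CPM in the controls (-0.03 ± 0.15 log2; edgeR adjusted p = 0.92). The thiolase ACAA2 had 165, 120.01 and 106 CPM in the FTO siRNA libraries, against 111, 108 and 119.6 CPM in the controls and the highest log2 fold change of these steps, 0.21 ± 0.18 (edgeR adjusted p = 0.504); 11.7% of its words occur in other genes. DECR1, the reductase that prepares polyunsaturated chains, had 25.5, 21.2 and 18 CPM in the FTO siRNA libraries, against 28.3, 32.5 and 24.6 CPM in the controls (-0.40 ± 0.19 log2; edgeR adjusted p = 0.202). HADH, the dehydrogenase of medium and short hydroxyacyl chains, was low in all FTO siRNA libraries, at 21.3, 19.3 and 9.3 CPM against 32, 32.7 and 26.3 CPM in the controls. The groups did not overlap, and the log2 fold change of -0.87 ± 0.29 did not pass (edgeR adjusted p = 0.0893). HADH was called lower by DESeq2 (adjusted p = 0.0281) and without FTO siRNA 3 (adjusted p = 0.0133), and its adjusted p ran from 0.0133 to 0.248 over the 16 alternatives.

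Electrons from the dehydrogenases pass through the electron transfer flavoprotein, ETFA with ETFB, to ETFDH in the inner membrane. All 3 had a positive log2 fold change and none passed in edgeR (1 had an unadjusted p under 0.05, and DESeq2 and limma-voom called 0). ETFB had 51.7, 34.9 and 48.6 CPM in the FTO siRNA libraries, against 31.4, 36.2 and 28.9 CPM in the controls, where FTO siRNA 2 lay within the control range (0.49 ± 0.19 log2; edgeR adjusted p = 0.131). ETFA had 268, 228 and 240.3 CPM in the FTO siRNA libraries, against 219, 218 and 230.4 CPM in the controls (0.14 ± 0.14 log2; edgeR adjusted p = 0.541). ETFDH had 17.2, 12.5 and 17.7 CPM in the FTO siRNA libraries, against 16, 15.5 and 13 CPM in the controls (0.09 ± 0.20 log2; edgeR adjusted p = 0.801). Of the ketone body enzymes, ACAT1, the mitochondrial thiolase that makes and splits acetoacetyl-CoA, had 69.2, 54.8 and 47.9 CPM in the FTO siRNA libraries, against 57.9, 61.2 and 60.8 CPM in the controls (-0.07 ± 0.16 log2; edgeR adjusted p = 0.832). BDH1, which turns acetoacetate into 3-hydroxybutyrate, was near the limit of detection with 6, 2 and 12 counts in FTO siRNA 1, 2 and 3, against 8, 8 and 8 counts in controls 1, 2 and 3. No change in ketone body enzymes could therefore be detected at this depth and spread.

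Among the peroxisomal enzymes EHHADH and HSD17B4 fell, ACOX3 rose and 5 did not pass. EHHADH, the bifunctional enzyme that hydrates and dehydrogenates straight chains and dicarboxylic acids, had 10.9, 14.1 and 13.6 CPM in FTO siRNA 1, 2 and 3, against 35.2, 31 and 25.3 CPM in controls 1, 2 and 3. The highest FTO siRNA value was well below the lowest control, and the 3 FTO siRNA libraries were close together. EHHADH averaged 12.9 ± 1.73 CPM with FTO siRNA and 30.5 ± 4.95 CPM with control siRNA (SD, n = 3 each) and fell by 1.24 ± 0.19 on the log2 scale (edgeR adjusted p = 0.00703), and the call held in all 16 alternatives (adjusted p from 5.68e-07 to 0.0479). HSD17B4, the bifunctional enzyme of branched chains and bile acid precursors, had 148, 144 and 130.3 CPM in FTO siRNA 1, 2 and 3, against 212, 220.01 and 183 CPM in controls 1, 2 and 3. The groups did not overlap and HSD17B4 fell by 0.54 ± 0.14 on the log2 scale (edgeR adjusted p = 0.0421). Its call was lost without control 1 (adjusted p = 0.166), control 2 (adjusted p = 0.198), control 3 (adjusted p = 0.0776), FTO siRNA 1 (adjusted p = 0.0564) or FTO siRNA 2 (adjusted p = 0.0716). It was also lost without a filter (adjusted p = 0.0553, log2 fold change -0.59) and after removal of length and GC trends (adjusted p = 0.238, log2 fold change -0.32). With replicate number as a block it was lost too (edgeR adjusted p = 0.111), as with that block and those trends removed (edgeR adjusted p = 0.26). The adjusted p of HSD17B4 ran from 0.00486 to 0.26 over the 16 alternatives.

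ACOX3, the oxidase that starts the breakdown of branched chains such as pristanoyl-CoA, was higher after FTO siRNA. It had 37, 26 and 30.3 CPM in FTO siRNA 1, 2 and 3, against 14.7, 20.2 and 19.7 CPM in controls 1, 2 and 3. All FTO siRNA values were above the controls, and ACOX3 rose by 0.77 ± 0.20 on the log2 scale (edgeR adjusted p = 0.0407). The call was lost without control 1 (adjusted p = 0.187), control 2 (adjusted p = 0.117), control 3 (adjusted p = 0.105) or FTO siRNA 1 (adjusted p = 0.102). It was also lost without a filter (adjusted p = 0.0618, log2 fold change 0.72) and after removal of length and GC trends (adjusted p = 0.0586, log2 fold change 0.64). With replicate number as a block it was lost too (edgeR adjusted p = 0.101), as with that block and those trends removed (edgeR adjusted p = 0.134). The adjusted p of ACOX3 ran from 0.0101 to 0.187 over the 16 alternatives. ACOX2, the oxidase of bile acid intermediates, had 6.26, 6.12 and 2.35 CPM in the FTO siRNA libraries, against 5.96, 4.87 and 4.17 CPM in the controls, with the lowest value of all in FTO siRNA 3 (-0.04 ± 0.37 log2; edgeR adjusted p = 0.96).

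CROT, which hands shortened chains to carnitine for export from peroxisomes, had 7.68, 6.3 and 4.29 CPM in the FTO siRNA libraries, against 9.95, 12.6 and 9.3 CPM in the controls. Its groups did not overlap, and the log2 fold change of -0.81 ± 0.26 did not pass (edgeR adjusted p = 0.0776). DESeq2 called it (adjusted p = 0.0271), as did the fit without FTO siRNA 3 (adjusted p = 0.0382), and the adjusted p ran from 0.0271 to 0.273 over the 16 alternatives. The peroxisomal thiolase ACAA1 had 118, 98.2 and 84.4 CPM in the FTO siRNA libraries, against 113, 122 and 120.1 CPM in the controls (-0.24 ± 0.16 log2; edgeR adjusted p = 0.356). The isomerase ECI2, found in peroxisomes and mitochondria, spread widely with 22.9, 16 and 7.92 CPM in the FTO siRNA libraries, against 16, 14.9 and 13.7 CPM in the controls (0.07 ± 0.33 log2; edgeR adjusted p = 0.92), and 29.8% of its exon bases overlap other genes. DECR2, the peroxisomal dienoyl-CoA reductase, had 41.8, 31.6 and 43.7 CPM in the FTO siRNA libraries, against 39.9, 43.4 and 41.8 CPM in the controls (-0.09 ± 0.16 log2; edgeR adjusted p = 0.749). Summed over the 8 peroxisomal members, the level was 392.4, 341.9 and 316.9 CPM in FTO siRNA 1, 2 and 3, against 447, 468.6 and 416.9 CPM in controls 1, 2 and 3, with no overlap between groups. The separation rested on HSD17B4: the other 7 summed to 244.5, 198.3 and 186.6 CPM in FTO siRNA 1, 2 and 3, against 234.6, 248.6 and 234.1 CPM in controls 1, 2 and 3, and overlapped. The 25 mitochondrial members summed to 1836, 1551 and 1689 CPM in FTO siRNA 1, 2 and 3, against 1706, 1678 and 1590.1 CPM in controls 1, 2 and 3, and overlapped.

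PDK4, the kinase that shuts off pyruvate oxidation when fat is burned, was barely counted, with 6, 7 and 37 counts in FTO siRNA 1, 2 and 3, against 8, 4 and 2 counts in controls 1, 2 and 3. FTO siRNA 3 alone held 37 of the 50 counts of its group. The same library was the highest of the FTO siRNA libraries for CPT1A, ACSL1, ACSL5, FABP1 and ACAD10 and the lowest for HADH, CROT, ECI2 and ACOX2. Across the 34 tested members FTO siRNA 3 was the highest of the 3 for 15 and the lowest for 14, or 44.1% and 41.2%, close to the 42.4% and 40.8% of all genes tested. Without it, 13 of the 34 members, or 38.2%, were called, beside 30% of all genes tested: the 7 above in the same directions and 6 more that were lower: SLC25A20, CRAT, ACADM, HADH, CROT and ACSL3. In that fit 10 members, or 29.4%, were lower and 3, or 8.82%, were higher, where 14.1% of all genes tested were lower and 15.9% higher. Only 2 FTO siRNA libraries remain in it.

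**Figure D4:**
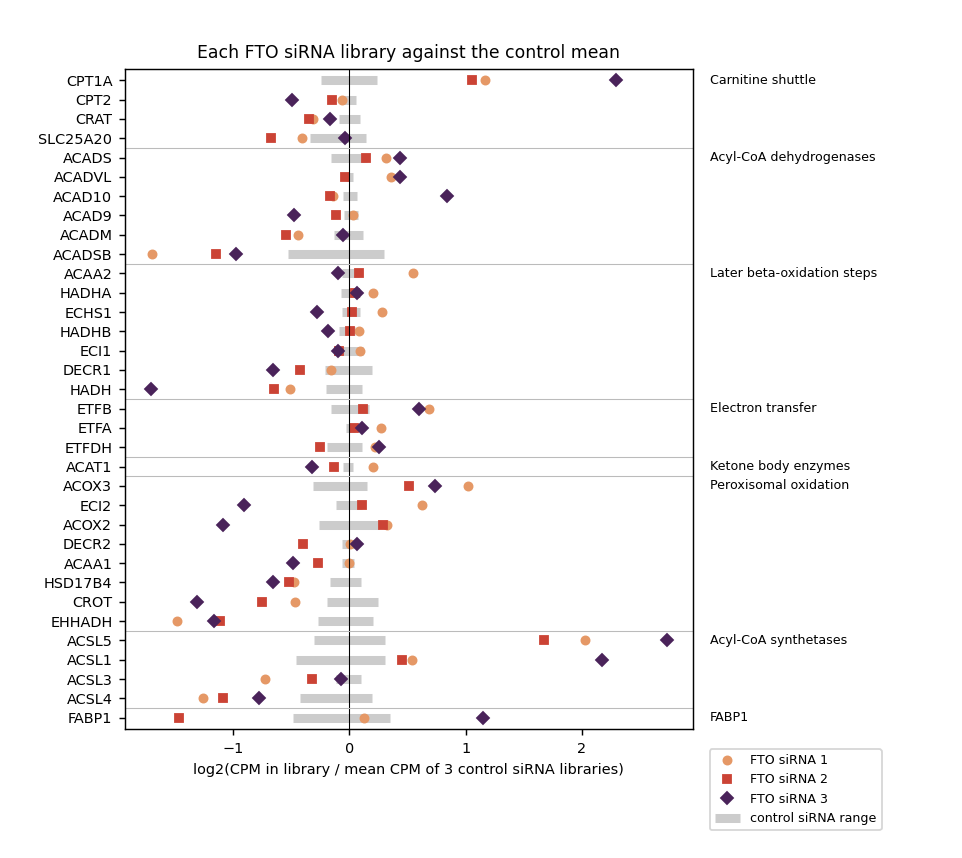
Log2 ratio of each FTO siRNA library to the mean of the 3 controls for the 34 tested members, by role (symbols mark FTO siRNA 1, 2 and 3; grey bars, range of the controls). FTO siRNA 3 lies apart from FTO siRNA 1 and 2 for CPT1A, ACSL1, ACAD10, HADH and ECI2. All 3 are spread widely for FABP1, while EHHADH and ACSL4 are below the controls in all 3.

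Genes around the pathway were counted from 7 lists of 87 genes in all, outside the members, of which 78 were tested, 7 rose and 5 fell (median log2 fold change -0.0026). That is 8.97% higher and 6.41% lower, beside 7.53% and 3.83% of all genes tested. PPAR alpha targets outside the members held all 7 increases. In that list 12 of 15 genes were tested, 7 rose, or 58.3%, and 5 did not pass, with a median log2 fold change of 1.15; increases of several of them were known when the list was drawn up, so the count is not independent evidence. CIDEC, a lipid droplet protein, had 28.8, 21.6 and 23.1 CPM in the FTO siRNA libraries, against 4.88, 4.02 and 6.58 CPM in the controls (2.25 ± 0.23 log2; edgeR adjusted p = 0.00217). The pantetheinase VNN1 had 17.7, 9.27 and 15.7 CPM in the FTO siRNA libraries, against 2.47, 2.32 and 2.23 CPM in the controls (2.60 ± 0.29 log2; edgeR adjusted p = 0.00244). The groups did not overlap for either gene, and both calls held in all 16 alternatives. ANGPTL4, a secreted lipase inhibitor, had 9.36, 6.36 and 31.7 CPM in the FTO siRNA libraries, against 1.27, 1.1 and 1.81 CPM in the controls, with FTO siRNA 3 the highest (3.51 ± 0.64 log2; edgeR adjusted p = 0.0127). Without FTO siRNA 3 its log2 fold change was 2.46, and the call was lost without control 1 (adjusted p = 0.0701) or control 2 (adjusted p = 0.0649), with an adjusted p from 1.24e-08 to 0.0701 over the 16 alternatives. CREB3L3, a transcription factor of fasting that acts with PPAR alpha, had 167, 111 and 124 CPM in the FTO siRNA libraries, against 73.4, 55.4 and 69.7 CPM in the controls (1.02 ± 0.19 log2; edgeR adjusted p = 0.0145). Its call was lost without control 1 (adjusted p = 0.063), control 2 (adjusted p = 0.0853) or control 3 (adjusted p = 0.0543), with an adjusted p from 0.000174 to 0.0853 over the 16 alternatives.

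**Figure D5:**
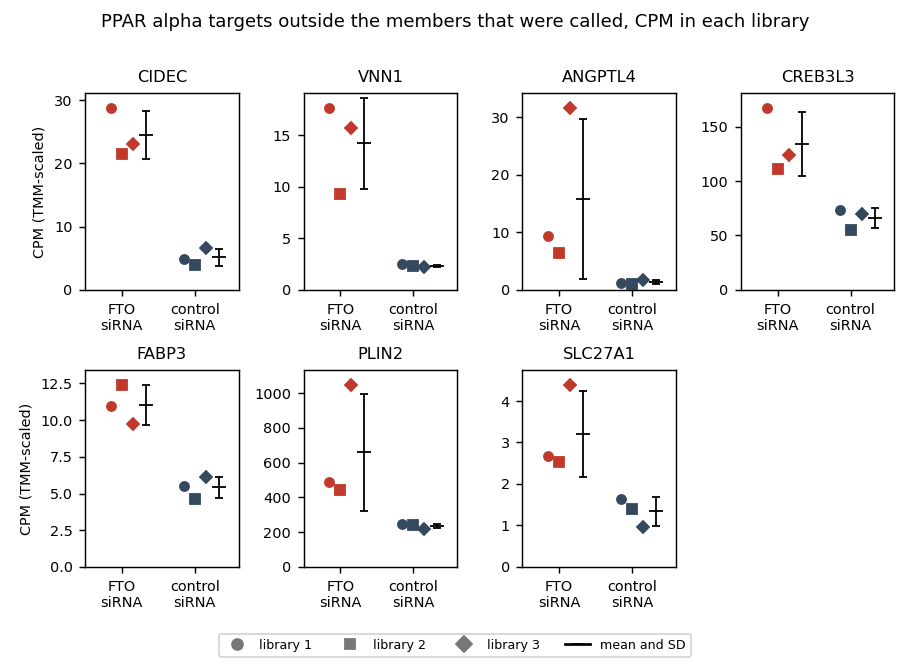
TMM-scaled CPM of the 7 PPAR alpha targets outside the members that were called (linear axes from 0; FTO siRNA left, control siRNA right; symbols mark library 1, 2 and 3, bars the mean and SD of 3). All FTO siRNA values exceed all controls in each panel, and FTO siRNA 3 is highest for ANGPTL4, PLIN2 and SLC27A1.

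Among PPAR alpha, its partners and coactivators, 11 of 11 genes were tested, and besides CREB3L3, which is on this list too, 2 fell, or 18.2%. The corepressor NCOR1 had 142, 203 and 220.4 CPM in the FTO siRNA libraries, against 324, 315 and 293 CPM in the controls (-0.72 ± 0.19 log2; edgeR adjusted p = 0.0412). RXRA, the dimer partner of PPAR alpha, had 61.5, 78.6 and 68.5 CPM in the FTO siRNA libraries, against 119, 110.2 and 89.6 CPM in the controls (-0.61 ± 0.16 log2; edgeR adjusted p = 0.0461). The call of NCOR1 was lost without control 1 (adjusted p = 0.162), control 2 (adjusted p = 0.149), control 3 (adjusted p = 0.104), FTO siRNA 1 (adjusted p = 0.0541) or FTO siRNA 2 (adjusted p = 0.0758). It was also lost with upper quartile factors (adjusted p = 0.0569, log2 fold change -0.67) and with no composition factors (adjusted p = 0.0653, log2 fold change -0.70). The call was lost too with replicate number as a block (edgeR adjusted p = 0.0857), and with that block and length and GC trends removed (edgeR adjusted p = 0.12). The adjusted p of NCOR1 ran from 0.00423 to 0.162 over the 16 alternatives. RXRA lost its call without control 1 (adjusted p = 0.195), control 2 (adjusted p = 0.177), control 3 (adjusted p = 0.0672), FTO siRNA 1 (adjusted p = 0.095) or FTO siRNA 2 (adjusted p = 0.0539). It lost the call too with upper quartile factors (adjusted p = 0.0552, log2 fold change -0.57), with no composition factors (adjusted p = 0.0578, log2 fold change -0.60), without a filter (adjusted p = 0.0563, log2 fold change -0.66) and with limma-voom (adjusted p = 0.053, log2 fold change -0.61). The same held with replicate number as a block (edgeR adjusted p = 0.103), and with that block and length and GC trends removed (edgeR adjusted p = 0.0625). The adjusted p of RXRA ran from 0.0106 to 0.195 over the 16 alternatives. In the list of malonyl-CoA control, 1 of 10 fell, or 10.0%. ACACA, an acetyl-CoA carboxylase that makes malonyl-CoA, had 85.8, 113 and 73.9 CPM in the FTO siRNA libraries, against 184, 179.9 and 151 CPM in the controls (-0.92 ± 0.19 log2; edgeR adjusted p = 0.0182). Its call was lost without control 1 (adjusted p = 0.0903), control 2 (adjusted p = 0.0898) or FTO siRNA 1 (adjusted p = 0.051) and after removal of length and GC trends (adjusted p = 0.0529, log2 fold change -0.72), with an adjusted p from 0.000297 to 0.0903 over the 16 alternatives. The call was lost too with those trends removed and replicate number as a block (edgeR adjusted p = 0.0518). ACACB, the other acetyl-CoA carboxylase of the list, had 6.69, 10.7 and 12.3 CPM in the FTO siRNA libraries. Its controls had 12.8, 14.3 and 8.75 CPM, the groups overlapped and it did not pass (-0.26 ± 0.28 log2, edgeR adjusted p = 0.58).

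Of 15 tested genes of peroxisomal transport, alpha oxidation and bile acid side chains 2 fell, or 13.3%. PHYH, the hydroxylase that starts alpha oxidation of phytanic acid, had 54.7, 51.8 and 57.4 CPM in the FTO siRNA libraries, against 98.1, 94.1 and 76.8 CPM in the controls (-0.71 ± 0.15 log2; edgeR adjusted p = 0.0189). ABCD3, a peroxisomal membrane transporter of acyl-CoA, had 99.9, 100.2 and 63.3 CPM in the FTO siRNA libraries, against 147, 156 and 141 CPM in the controls (-0.75 ± 0.19 log2; edgeR adjusted p = 0.0408). The groups did not overlap for either gene. The call of PHYH was lost without control 1 (adjusted p = 0.103), control 2 (adjusted p = 0.103) or FTO siRNA 2 (adjusted p = 0.0512), with an adjusted p from 0.000421 to 0.103 over the 16 alternatives. With replicate number as a block it was lost too (edgeR adjusted p = 0.0608). ABCD3 lost its call without control 1 (adjusted p = 0.13), control 2 (adjusted p = 0.158), control 3 (adjusted p = 0.0938), FTO siRNA 1 (adjusted p = 0.0529) or FTO siRNA 2 (adjusted p = 0.0501) and after removal of length and GC trends (adjusted p = 0.151, log2 fold change -0.57). The same held with replicate number as a block (edgeR adjusted p = 0.054), and with that block and those trends removed (edgeR adjusted p = 0.141). The adjusted p of ABCD3 ran from 0.00411 to 0.158 over the 16 alternatives.

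Among fatty acid uptake and other activation genes 2 of 13 tested genes rose, or 15.4%. FABP3, the heart and muscle binding protein, had 11, 12.4 and 9.71 CPM in the FTO siRNA libraries, against 5.51, 4.63 and 6.1 CPM in the controls (1.02 ± 0.20 log2; edgeR adjusted p = 0.0173). SLC27A1, a fatty acid transport protein, had 2.66, 2.53 and 4.39 CPM in the FTO siRNA libraries, against 1.65, 1.4 and 0.966 CPM in the controls (1.27 ± 0.34 log2; edgeR adjusted p = 0.0464). FABP3 lost its call without control 1 (adjusted p = 0.0981), control 2 (adjusted p = 0.0982), control 3 (adjusted p = 0.0535) or FTO siRNA 2 (adjusted p = 0.0528), with an adjusted p from 0.000632 to 0.0982 over the 16 alternatives. The same held with replicate number as a block (edgeR adjusted p = 0.0553), and with that block and length and GC trends removed (edgeR adjusted p = 0.0847). SLC27A1 lost its call without control 1 (adjusted p = 0.131), control 2 (adjusted p = 0.15), control 3 (adjusted p = 0.171), FTO siRNA 1 (adjusted p = 0.0687) or FTO siRNA 2 (adjusted p = 0.064). It lost the call too with upper quartile factors (adjusted p = 0.0514, log2 fold change 1.32), with no composition factors (adjusted p = 0.0631, log2 fold change 1.29), with limma-voom (adjusted p = 0.058, log2 fold change 1.25) and after removal of length and GC trends (adjusted p = 0.0804, log2 fold change 1.13). The same held with replicate number as a block (edgeR adjusted p = 0.107), and with that block and those trends removed (edgeR adjusted p = 0.173). The adjusted p of SLC27A1 ran from 0.0212 to 0.173 over the 16 alternatives. The muscle marker CKM, the only testable marker of its list, was higher after FTO siRNA too, and passed the filter only through those libraries. It had 2.91, 1.48 and 2.09 CPM in the FTO siRNA libraries and 0.19, 0.244 and 0.181 CPM in the controls. Within the FTO siRNA group the order differed: FTO siRNA 2 had the highest FABP3 and the lowest CKM. The part of CKM-expressing cells in the FABP3 result was not tested. None of 7 tested ketone body genes outside the members and none of 14 flavin and branched-chain genes passed in edgeR, where 1 and 4 had an unadjusted p under 0.05 DESeq2 called 0 and 1, and limma-voom called 0 in both lists.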

How the data were processed

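The authors deposited raw counts per Ensembl gene, 1 file per library. Per the submitters' processing notes, the tools were TopHat2 2.0.11, TopHat and HTSeq and the builds hg19 and GRCh37, without role or order; for strand, read length and shared reads the setting is not given in the sources used here. Symbols, chromosomes, lengths and GC content came from GENCODE 29 by identifier (56753 of 60483 matched); its build differs, so gene coordinates are not given. Total counts were 15713279 to 18390953 per library, and the most similar libraries differed beyond sampling noise (chi-square over degrees of freedom 8.45).

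Counts were filtered with filterByExpr, scaled by TMM and tested with edgeR 4.0.16 (glmQLFit, glmQLFTest; R 4.3.3), two-sided, on an intercept and the group, with Benjamini-Hochberg adjustment over 15025 genes at 0.05. A standard error is the log2 fold change over the square root of F. The steps were tested on simulated data. Alternatives used RLE and upper quartile factors, DESeq2 1.42.0, limma 3.58.1 (voom), other scalings and filters, the replicate block, offsets for length and GC content (lowess, span 0.3) and each library left out; all were planned, none added.

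Members and lists were chosen with earlier results of these data known. Named were all members, FTO and up to 4 called genes with the smallest p-values of each other list, markers where they move with a result; PLIN2 is shown in a plot only, chosen after its values were seen. Protein sequences were not used here. Shared reads were gauged as 50-base words of the longest transcript that occur in another gene.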

Additional observations from a re-analysis of the deposited data

How the results depend on the processing

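Of 544 comparisons of a tested member with an alternative, 473 kept direction and side of the threshold, 30 lost a call, 9 gained one and 32 changed sign, all 32 in members that were not called; for these the cause was not tested. ACSL5, EHHADH and FTO kept their calls throughout. With 1 library left out, counts ran from 236 to 2430 higher and 94 to 2152 lower over all genes, 0 to 1 higher and 0 to 5 lower among mitochondrial members, 0 to 1 higher and 1 to 3 lower among peroxisomal members, 0 to 2 lower among other members, 2 to 11 higher and 0 to 12 lower among pathway genes outside the members, and 2 to 9 higher among PPAR alpha targets. The highest counts over all genes, and the highest counts of lower members, came without FTO siRNA 3, and fewer libraries enter each of these fits. DESeq2 called 1029 genes lower, 2 mitochondrial members lower, 2 other members higher and 8 pathway genes lower. Without a filter, 0 peroxisomal members were higher and 1 lower. With length and GC offsets 0 were higher and 1 lower, and 3 pathway genes were lower. Upper quartile or no composition factors left 3 pathway genes lower.

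For libraries of equal replicate number the deviations from the group means correlated at -0.138, -0.0643 and -0.248. No library correlated best with the library of its own number. Deviations within a group of 3 depend on each other, so these values cannot settle whether the libraries were paired. Without a filter the median over all genes was 0.18 (log2), beside 0.04. With the replicate block 736 genes were higher and 305 lower, 0 peroxisomal members higher and 1 lower, 0 other members lower and 1 pathway gene lower. With the block and length and GC offsets together these were 583 higher and 277 lower, 0 mitochondrial members higher, 0 peroxisomal higher and 1 lower, 0 other lower, and 4 pathway genes higher and 1 lower, with 4 PPAR alpha targets higher.

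No member whose sign turned was called; their log2 fold changes with all libraries lay between -0.09 (DECR2) and 0.30 (ACADS). Leave-one-out values ran -0.1815 to 0.4155 for ACAD10, -0.0998 to 0.0202 for HADHB, -0.1346 to 0.1275 for ECHS1, -0.1080 to 0.0268 for ECI1, -0.0158 to 0.3070 for ACAA2, -0.0259 to 0.2102 for ETFDH, -0.2378 to 0.0198 for ACAT1, -0.2717 to 0.2825 for ACOX2, -0.3317 to 0.3595 for ECI2, -0.2129 to 0.0114 for DECR2 and -0.4945 to 0.7046 for FABP1. ECHS1 was -0.0019 with RLE factors, -0.0019 with DESeq2, -0.0242 without a filter and -0.2855 with length and GC offsets (-0.2845 with the block too), and ACADS was -0.0358 (-0.0428 with the block too). With upper quartile factors HADHB was 0.0187 and ECI1 0.0181. ECI2 was -0.0771 with limma-voom, -0.0440 with the block and -0.0072 with block and offsets, and FABP1 -0.0269, -0.0371 and -0.1522 in the same order. CPT1B, ACADL, ACAD11, BDH1 and PDK4 had too few counts to be tested. Of the exon bases of CPT1B and ACAD11, 66.4% and 83.8% also belong to other genes, and how reads there were counted is not given.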

Other observations

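Some genes near the pathway were much higher in 1 library than in the rest, and the genes given here were singled out after their values were seen. TXNIP, a PPAR alpha and glucose-responsive gene, had 14.8, 13 and 206 CPM in FTO siRNA 1, 2 and 3, against 6.21, 7.13 and 6.82 CPM in controls 1, 2 and 3. Its groups did not overlap, and the log2 fold change of 3.54 ± 1.02 did not pass (edgeR adjusted p = 0.0589). FGF21, a fasting hormone of the liver, had 0, 1 and 63 counts in FTO siRNA 1, 2 and 3, against 0, 0 and 0 counts in controls 1, 2 and 3, so that 63 of its 64 counts came from FTO siRNA 3. ACSM3, a medium-chain acyl-CoA synthetase, had 4.09, 3.4 and 18 CPM in the FTO siRNA libraries, against 6.97, 6.64 and 3.2 CPM in the controls. FABP5, a fatty acid binding protein of many tissues, was high in FTO siRNA 1 and 2 instead, at 184, 132 and 60.1 CPM in FTO siRNA 1, 2 and 3 and 72, 60.3 and 62.5 CPM in the controls (0.95 ± 0.34 log2; edgeR adjusted p = 0.112).

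Of the AMP-activated kinase, which restrains malonyl-CoA synthesis, the catalytic subunit PRKAA1 had 173, 245 and 263 CPM in the FTO siRNA libraries, against 354, 375 and 335 CPM in the controls. Its groups did not overlap and the log2 fold change of -0.64 ± 0.18 did not pass (edgeR adjusted p = 0.0577). The monocarboxylate carrier SLC16A7 ranged from 39.7 CPM in FTO siRNA 1 to 156 CPM in FTO siRNA 3, against 146, 163 and 129.7 CPM in the controls.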
